A study of Mus musculus with 36 samples.

Results

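Integrins are paired receptors, each made of an α and a β subunit, that bind proteins of the extracellular matrix outside the cell. Inside it, talins and kindlins bind the β tail and activate the receptor, and vinculin, tensins, the ILK-PINCH-parvin complex and a set of LIM-domain proteins tie it to actin in the plaque called the focal adhesion. The kinases FAK and SRC, with adaptors such as p130Cas, signal from the same plaque. Such contacts are a means by which adherent cells hold a surface and sense its stiffness. The study counts mouse embryonic stem cells among cells without strong focal adhesions.

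The 38 genes described here are a fixed list of integrin subunits and focal adhesion components, among 49671 genes in the deposited count table. They comprise 8 α and 5 β subunits, 11 activators and actin links, 6 LIM-domain proteins and 8 kinases, adaptors and regulators. All 38 were found in the table, and 37 passed the filter on low counts and were tested. The filter left out Itga2, which had 0 to 12 counts per library.

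The cells were mouse embryonic stem cells labelled 129m wt, so all groups share 1 background, and no label names a mutation or a separate line. They were cultured on soft or stiff hydrogels or on plastic, in serum alone or with LIF (leukaemia inhibitory factor, a cytokine added to keep the cells undifferentiated), with PD03 (an inhibitor of MEK, the kinase above ERK), or with both. At 24 h there were soft and stiff groups in serum + LIF, with 3 libraries each. At 48 h soft and stiff groups covered all 4 media (serum alone, with PD03, with LIF, and with both), and a plastic group was in serum + LIF. Each 48 h group had 3 libraries, except soft serum + PD03 with 6, which makes 36 libraries in 11 groups. The study's methods describe the gels as polyacrylamide carrying tethered matrix protein, and fibronectin as the coating under mouse cells on gels and on plastic, so the surface itself offers integrin ligand in every group. No label states whether replicate libraries came from separate cultures, and p-values then measure only the spread between these libraries.

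Total counts ranged from 10405696 to 26635239 per library. All 24 h and plastic libraries were sequenced in 1 pool. At 48 h, nearly every stiff library was in a second pool and nearly every soft library in another, so soft and stiff share a pool at 24 h and are almost completely split by pool at 48 h. The exceptions were 1 of 3 stiff serum + LIF libraries and 2 of 6 soft serum + PD03 libraries, and the columns do not show which. A fit with a pool term was therefore run for each of the 45 possible assignments, and its range of calls is given with the 48 h counts. The 8 embryonic stem cell markers were high everywhere, with summed levels from 2599 to 3740 CPM (counts scaled to library size) per library and single-gene means from 203 CPM (Klf4) to 586 CPM (Pou5f1).

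The level of a member is its CPM, computed over TMM-scaled library sizes, and levels of different genes are compared only per kilobase of exon (RPKM). A mean of at least 1 CPM over the 11 group means was reached by 36 of the 38 members. The exceptions were Itgb8, with 0.742 CPM, and Itga2, with 0.12 CPM. Lims2, at 1.23 CPM, was the member just above the line.

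Per kilobase, Itgb1, the β1 subunit that pairs with most α subunits, was the highest member, with 46.7 RPKM. Among the α subunits, Itga6 (a laminin receptor chain) had 23.5 RPKM, Itga5 (the fibronectin receptor chain) 20.97 and Itga3 (a laminin receptor chain) 18.5. These were followed by Itgav, a chain of several RGD-binding receptors, with 5.92 RPKM and by Itga9 with 2.35 RPKM. The collagen receptor chains were low, with Itga1 at 0.167 RPKM and Itga2 at 0.0168 RPKM, as was the laminin chain Itga7 at 0.242 RPKM.

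The other β subunits lay far below Itgb1. Itgb5, a partner of αv, had 8.69 RPKM, Itgb4 (partner of α6 in hemidesmosomes) 2.14, Itgb3 (another partner of αv) 1.64 and Itgb8 0.0671. Within the plaque, p130Cas (Bcar1, 41.8 RPKM), tensin 3 (Tns3, 35.4), talin 1 (Tln1, 34.5), kindlin 2 (Fermt2, 29.2) and the adaptor Crk (23.9) led. Paralogues were unequal, since Tln2 had 3.44 RPKM, kindlin 1 (Fermt1) 0.821, PINCH2 (Lims2) 0.403 against 12.9 for PINCH1 (Lims1), and Nedd9 0.637 against its relative Bcar1.

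**Figure D1:**
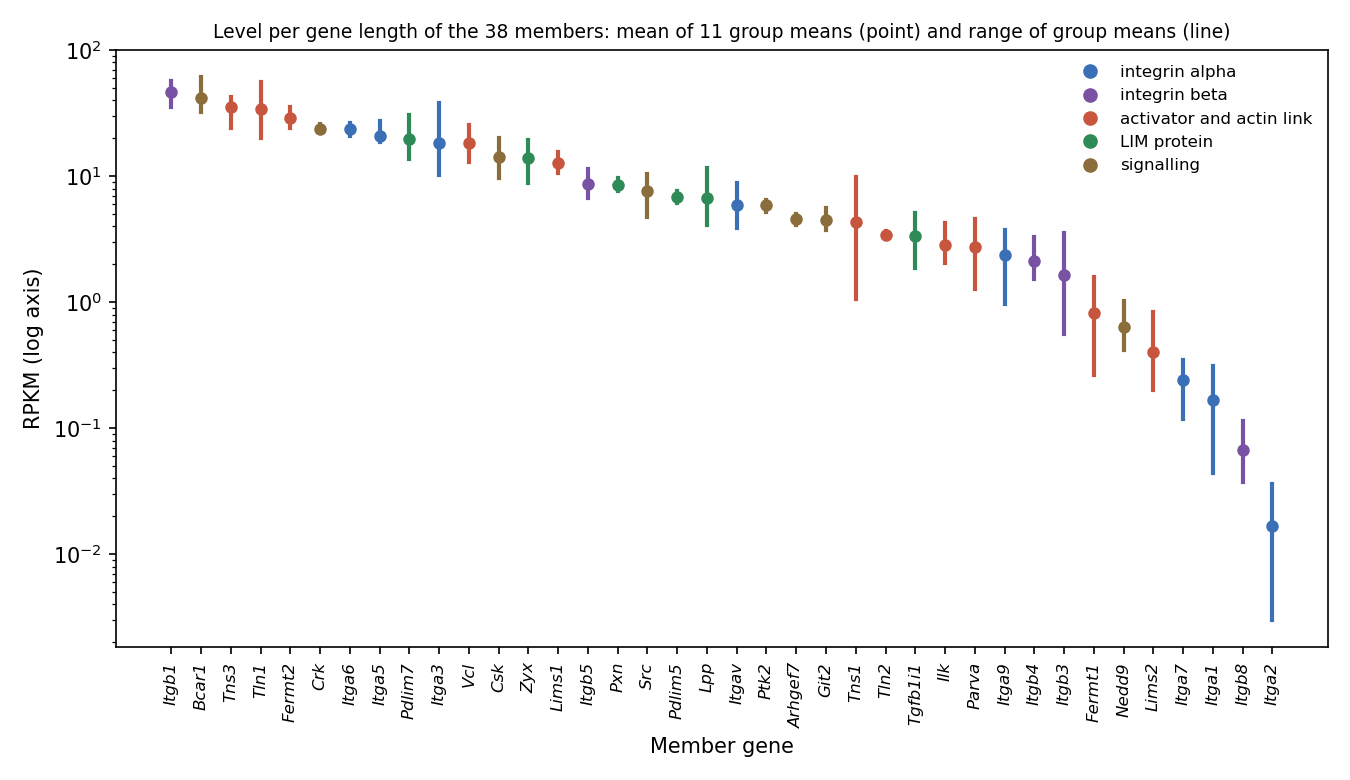
Mean level of each of the 38 members over the 11 groups (points) and the range of group means (vertical lines), in RPKM on a log axis, coloured by role. Itgb1 is highest at 46.7 RPKM, the line of Tns1 is the longest among tested members (9.45-fold between groups), and the line of Itga2, whose lowest group mean was 0, is drawn down to 0.003 only.

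The spread over groups differed widely between members. Tns1, tensin 1, varied 9.45-fold between its lowest group mean (16.9 CPM, plastic) and its highest (159 CPM, stiff serum + LIF + PD03). Next came Itga1 with 7.06-fold, Itgb3 with 6.32-fold and Fermt1 with 5.96-fold. At the other end, Crk varied 1.14-fold, Tln2 1.15-fold, Arhgef7 (β-PIX) 1.21-fold, and Pdlim5, FAK (Ptk2) and paxillin (Pxn) from 1.24-fold to 1.26-fold.

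Promoters of the members were read because several of these genes moved together. RefSeq promoter windows (GRCm38.p6, 250 bases before to 50 after the start) were present for 28 members. Both strands were searched for the CArG box bound by SRF, for GGAATG, the core bound by TEAD factors, and for TGACTCA, bound by AP-1. The CArG box was found in 2 of the 28 members, against 1.81% of 27025 genes with a window. GGAATG was found in 3 of the 28 (16.6% of genes) and TGACTCA in 2 of the 28 (5.95% of genes). The matches in members lower on soft gels in 3 or more conditions, and the CArG box of Fermt2, which passed in none, are printed here with 10 bases on either side. Capitals mark the match, and the sequences read 5′ to 3′ on the strand of the gene.
Vcl, CArG box: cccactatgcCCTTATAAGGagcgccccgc
Fermt2, CArG box: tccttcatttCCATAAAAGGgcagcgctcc
Vcl, GGAATG: ccctcccttgGGAATGggggcggggc
Lpp, GGAATG: ggaagtatgtGGAATGgagaaggaag
Itgb1, GGAATG: gcggcgcggaGGAATGcgtttccgga
Zyx, TGACTCA on the reverse strand: gtgcggacagTGAGTCAgttctccagc
The Vcl CArG box lies on chromosome 14 at 20929171 to 20929180 and its GGAATG at 20929255 to 20929260, plus strand, 227 and 143 bases before the start. The Fermt2 box lies on chromosome 14 at 45530260 to 45530269, minus strand, 204 bases before the start. The matches of Lpp (chromosome 16, 24721673 to 24721678), Itgb1 (chromosome 8, 128685647 to 128685652) and Zyx (chromosome 6, 42349707 to 42349713) are on genes of the plus strand. They lie 182, 7 and 121 bases before the transcription start that their window is set on. The Lpp and Zyx matches lie inside their genes, which span 24393507 to 24992578 and 42349630 to 42360213, so both starts are internal. The other member with TGACTCA was Itga9, with the match 39 bases after a start. That start is internal too, since the match begins at 118711730 and the gene spans 118606690 to 118901003, plus strand. These are matches of letters only.

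The soft and stiff gels were compared in 5 conditions to ask which members follow the stiffness of the surface. Lower levels on the soft gel were the rule among the members that moved. With edgeR's quasi-likelihood test and Benjamini-Hochberg adjustment over all 17702 genes (threshold 0.05), 11 of the 37 tested members were lower on soft in 3 or more of the 5 conditions and higher in none, against 1.74% of all genes tested. They were Itga3 and Lpp (all 5 conditions), Itgb1, Tln1, Fermt1, Vcl, Parva, Zyx, Tgfb1i1 and Pdlim7 (4) and Itgb4 (3). No member was higher on soft in 3 or more conditions, against 0.599% of genes. In no condition did 19 of the 37 pass, against 86.8% of genes.

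At 24 h in serum + LIF, where both substrates share a pool, 13 of 37 members passed, against 3.55% of genes. Of these, 12 were lower on soft (2.52% of genes) and 1, Tns1, was higher (1.03% of genes). The median log2 fold change (soft minus stiff) was -0.11 over the tested members and -0.0016 over all genes. At 48 h in serum + LIF, 2 members passed, both lower (0.333% of genes lower, 0.446% higher and 0.78% in all), and the pool term gave 0 to 2. A further 5 members had an unadjusted p under the threshold there, 7 in all. The shares of genes given are for the adjusted p, and the share at an unadjusted p was not computed.

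In serum alone, 15 members passed, against 4.85% of genes, with 13 lower (2.77% of genes) and 2 higher (2.08%). The pool term left 5 to 12 of them. In serum + PD03, 13 passed (5.55% of genes), all lower (3.42% lower and 2.13% higher among genes), and 8 to 12 with the pool term. In serum + LIF + PD03, 14 passed (7.61% of genes), 13 lower (4.82%) and 1 higher (2.8%), and 7 to 10 with the pool term. Over the mean of the 5 conditions, 19 members passed (17.1% of genes), 17 lower (8.74%) and 2 higher (8.35%), and the pool term gave 9 to 15. Lpp, Parva and Zyx passed in serum, serum + PD03 and serum + LIF + PD03 under every one of the 45 pool assignments. Itga3 passed under all 45 in serum, under 18 with PD03 and under 37 with both additions. Itgb1, Tgfb1i1 and Pdlim7 passed under all 45 in both media with PD03 but under 12, 18 and 0 in serum. In the same order of media, the numbers were 32, 45 and 40 for Tln1, 20, 38 and 3 for Vcl, 15, 9 and 3 for Fermt1 and 14, 16 and 9 for Itgb4.

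**Figure D2:**
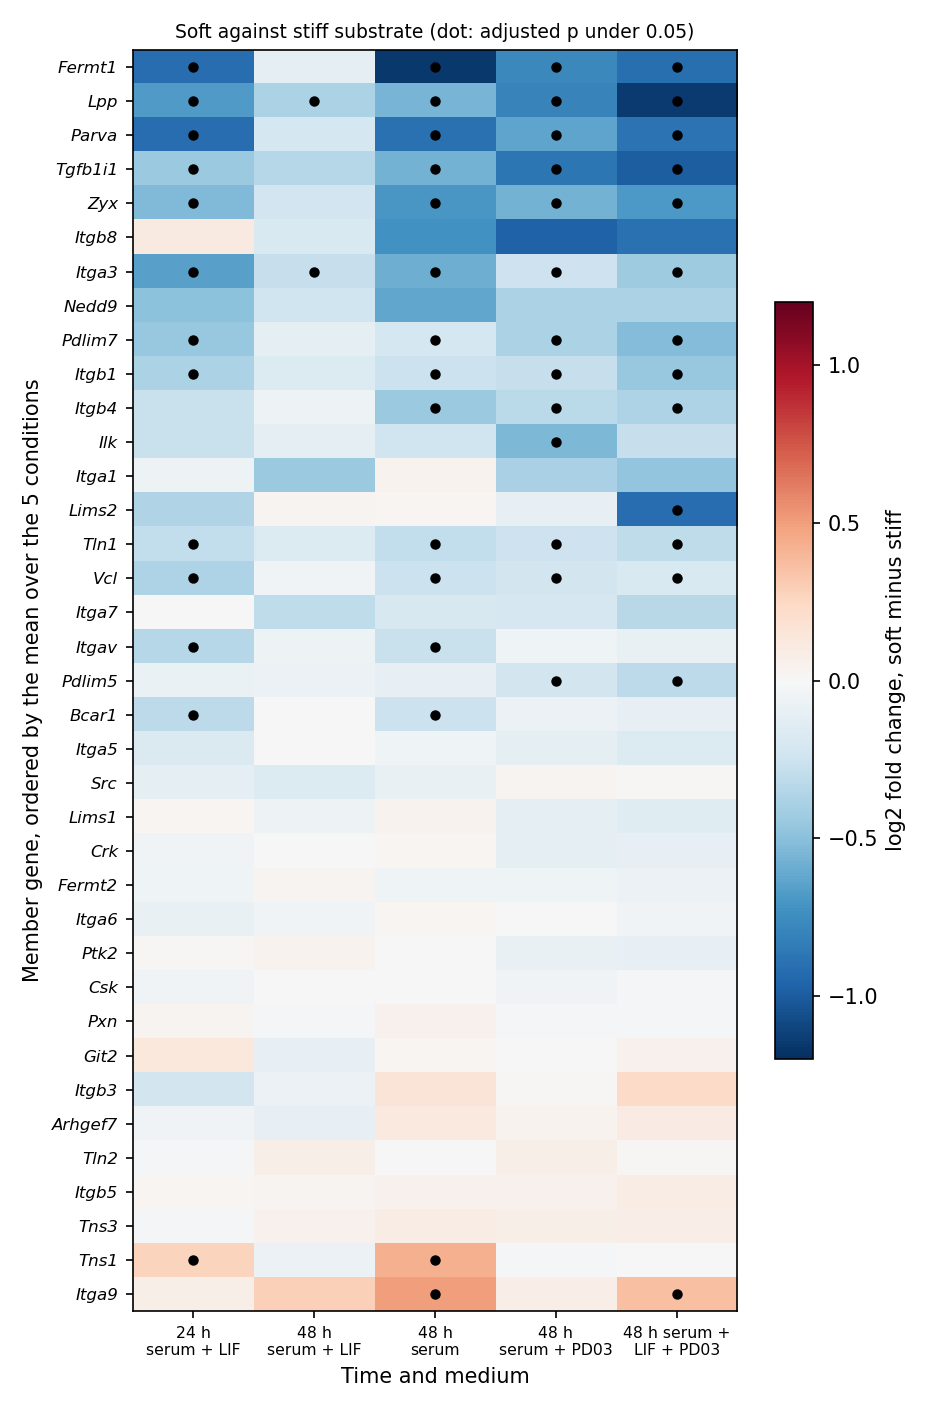
Log2 fold change, soft minus stiff, of the 37 tested members (rows) in the 5 conditions of time and medium (columns). Blue is lower on soft, red is higher, and a dot marks an adjusted p under 0.05, so that 13, 2, 15, 13 and 14 members carry a dot from left to right.

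Markers of other cell types moved with substrate too. The summed level of 8 fibroblast markers was lower on soft in every condition without overlap, for example 26.7 to 39.1 CPM on soft against 54.3 to 61.5 CPM on stiff at 24 h, and 34.04 to 48.9 against 92.8 to 99.4 CPM in serum + LIF + PD03. Most of it was Col1a1 (mean 35.5 CPM). Thy1, Pdgfrb and Col1a2 had means of 7.20, 4.96 and 3.32 CPM. Those of Lum, Dcn, Postn and Col3a1 were 0.0349, 0.519, 0.882 and 0.903 CPM. In 48 h serum the sums were 25.2 to 32.1 against 51.9 to 57.1 CPM, in serum + LIF 28.3 to 32.8 against 35.8 to 43.3 CPM and in serum + PD03 36.1 to 48.4 against 74.6 to 84.2 CPM. Of the 7 fibroblast markers tested, 1 was lower on soft in each serum + LIF condition and 2 in each of the other media, and none was higher. Over the mean of the 5 conditions 5 of the 7 were lower, against 8.74% of genes. Between 4 and 6 of the 8 embryonic stem cell markers were higher on soft in each condition except 48 h serum + LIF, where none passed. Of 4 trophectoderm markers, 1 was lower on soft at 24 h (sums of 27.5 to 34.2 against 39.5 to 43.8 CPM), 1 in 48 h serum, 3 in serum + PD03, 2 in serum + LIF + PD03 and 0 in 48 h serum + LIF, and none was higher. Of 7 primitive endoderm markers, 0 or 1 was lower in each condition and none was higher. Neural markers went the other way. Of 3, 1 was higher on soft in 48 h serum + LIF, in serum and in serum + LIF + PD03, and none was lower in any condition. Over the mean of the 5 conditions 2 of the 3 were higher, against 8.35% of genes. None of 4 primitive streak markers passed in any condition. The part of these shifts in the members' values was not tested, and in bulk RNA fewer cells of a type and less RNA per cell cannot be told apart.

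Among the α subunits, Itga3 was the one lower on soft in every condition. At 24 h its libraries had 203, 226 and 226 CPM on stiff and 130, 142 and 145 CPM on soft. After 48 h in serum they had 113, 116 and 125 CPM on stiff against 76.4, 79.4 and 79.6 CPM on soft. In both cases the libraries did not overlap, as for 17.1% and 20.4% of genes. The log2 fold changes were -0.65 ± 0.066 (SE, adjusted p = 3.53e-10) and -0.59 ± 0.069 (adjusted p = 2.3e-08). After 48 h in serum + LIF, stiff libraries had 94.7, 95.9 and 118 CPM and soft 78.0, 86.0 and 90.8 CPM, a gap of -0.28 ± 0.070 (adjusted p = 0.033) that no pool assignment kept.

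That call was also lost without stiff library 3 (adjusted p = 0.568), soft library 1 (0.131) or soft library 3 (0.192). With PD03 the Itga3 libraries had 66.3, 69.3 and 72.8 CPM on stiff and a range of 54.2 to 64.1 CPM (median 56.9) on soft, or -0.25 ± 0.062 (adjusted p = 0.00775, and 0.0997 without stiff library 1). With LIF and PD03 the libraries had 75.1, 78.7 and 84.9 CPM on stiff and 55.8, 60.3 and 61.8 CPM on soft, or -0.42 ± 0.070 (adjusted p = 1.99e-05).

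The other α subunits mostly stayed close together. Itgav was lower on soft at 24 h (-0.35 ± 0.064, adjusted p = 0.000244) and in serum (-0.27 ± 0.063, adjusted p = 0.00425), the latter lost without stiff or soft library 2 (adjusted p = 0.0863 at most) and kept in 14 of 45 pool assignments. Itga5 and Itga6, the most abundant α chains beside Itga3, passed in none of the conditions, with log2 fold changes from -0.18 to -0.01 for Itga5 and -0.09 to 0.02 for Itga6. Itga9, a chain that binds tenascin and osteopontin, went the other way. In serum it had 15.7, 16.2 and 17.5 CPM on stiff and 22.1, 23.3 and 24.5 CPM on soft, with no overlap (as for 20.4% of genes). The log2 fold change was 0.50 ± 0.095 (adjusted p = 0.000312). That call was kept in 14 of the 45 pool assignments (adjusted p = 0.337 at most). In serum + LIF + PD03 the gain of Itga9 was 0.36 ± 0.11 (adjusted p = 0.0328), which passed under no pool assignment and was lost without 4 of the 6 libraries, stiff 1, stiff 2, soft 2 or soft 3 (adjusted p = 0.245 at most).

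Of the β subunits, Itgb1 and Itgb4 were lower on soft. For Itgb1 the 24 h libraries had 219, 234 and 250.7 CPM on stiff and 176, 177 and 189 CPM on soft (-0.38 ± 0.055, adjusted p = 2.53e-06). These libraries do not overlap, as for 17.1% of genes. In serum + LIF + PD03 they had 189, 202 and 209 CPM against 142, 147 and 149 CPM (-0.45 ± 0.054, adjusted p = 1.45e-08). The change was -0.28 ± 0.047 in serum + PD03 (adjusted p = 4.57e-05) and -0.25 ± 0.054 in serum (adjusted p = 0.00148, and 0.071 without stiff library 2). With LIF at 48 h it was -0.17 and did not pass.

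Itgb4 had 14.99, 15.4 and 15.6 CPM on stiff and 10.6, 11.1 and 11.99 CPM on soft in serum (-0.45 ± 0.092, adjusted p = 0.000869). Its changes with PD03 were -0.33 ± 0.081 without LIF and -0.37 ± 0.090 with LIF, and both passed (adjusted p = 0.0073 and 0.00372). The 24 h change of -0.27 did not pass. Itgb5, with log2 fold changes from 0.02 to 0.09, and Itgb3, from -0.22 to 0.23, passed in none of the conditions. Itgb8 fell below 1 CPM in every gel group, and its fold changes from -0.97 to 0.10 did not pass either.

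Activators and actin links held 4 of the 11 members, among them α-parvin (Parva), the actin-binding arm of the ILK complex. Its 24 h libraries had 42.1, 47.1 and 48.2 CPM on stiff and 23.3, 23.3 and 26.3 CPM on soft (-0.91 ± 0.091, adjusted p = 2.74e-10). With LIF and PD03 they had 44.4, 47.98 and 48.1 against 24.5, 25.3 and 26.4 CPM (-0.88 ± 0.088, adjusted p = 6.86e-11). The libraries did not overlap in either, as for 17.1% and 24.8% of genes. The change was -0.89 ± 0.10 in serum (adjusted p = 9.87e-09) and -0.63 ± 0.077 in serum + PD03 (adjusted p = 3.76e-08). By contrast, after 48 h with LIF the Parva libraries overlapped, with 14.3, 16.5 and 19.7 CPM on stiff and 12.8, 15.2 and 15.7 CPM on soft (-0.22, not passed).

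Kindlin 1 (Fermt1) showed folds of the same size at a much lower level. At 24 h it had 7.90, 9.31 and 9.95 CPM on stiff and 3.66, 5.21 and 5.35 CPM on soft (-0.92 ± 0.19, adjusted p = 0.00121). In serum it had 7.62, 7.92 and 9.08 against 3.06, 3.60 and 4.28 CPM (-1.16 ± 0.19, adjusted p = 3.04e-05). The calls of Fermt1 with PD03 (-0.77 ± 0.21, adjusted p = 0.0193) and with LIF and PD03 (-0.91 ± 0.24, adjusted p = 0.0107) were less firm. The first was lost without stiff library 1, stiff library 2 or soft library 1 (adjusted p = 0.221 at most) and the second without stiff or soft library 2 (0.106 at most). The abundant kindlin 2 (Fermt2) did not pass anywhere, with log2 fold changes from -0.07 to 0.03.

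Talin 1 and vinculin, which bind each other under load, changed less in fold. Tln1 had 317, 333 and 352 CPM on stiff and 258, 277 and 281 CPM on soft at 24 h (-0.30 ± 0.051, adjusted p = 6.18e-05), and its other calls ranged from -0.30 to -0.25. Vcl had 145, 151 and 152 CPM on stiff and 109, 118 and 119.9 CPM on soft at 24 h (-0.37 ± 0.051, adjusted p = 6.8e-07). Its changes at 48 h were -0.25 in serum, -0.22 with PD03 and -0.18 ± 0.049 with LIF and PD03 (adjusted p = 0.0106, lost without stiff library 2 or soft library 1, 0.0979 at most). Of the exon bases of Vcl, 25.5% also belong to Ap3m1 on the other strand, and the strand setting of the counting is not given in the sources used here. In contrast to Tln1, Tln2 did not pass in any condition (-0.03 to 0.07).

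ILK itself (Ilk) passed only in serum + PD03 (-0.54 ± 0.15, adjusted p = 0.0205), a call lost without stiff library 1 or soft library 3 (0.29 at most) and kept in 11 of 45 pool assignments (0.641 at most). For Ilk 89.7% of exon bases are shared with Rrp8 and Taf10 on the other strand, so its counts of 5.59 to 11.7 CPM per group mean are uncertain. PINCH2 (Lims2) passed in serum + LIF + PD03 only (-0.91 ± 0.25, adjusted p = 0.0152, and 0.104 at most without stiff library 1, stiff library 2 or soft library 1), with mean levels of 1.36 CPM (soft) and 2.57 CPM (stiff). The call of Lims2 was kept in 3 of 45 pool assignments (adjusted p = 0.653 at most). PINCH1 (Lims1) and Tns3 passed in none. Tns1 was higher on soft at 24 h, with 18.6, 19.997 and 21.1 CPM on stiff and 22.96, 23.5 and 25.3 CPM on soft (0.27 ± 0.071, adjusted p = 0.02). That call was lost without stiff library 3 (0.163), soft library 1 (0.0513) or soft library 2 (0.163). In serum, the libraries of Tns1 had 16.4, 16.6 and 17.8 CPM on stiff and 21.9, 22.7 and 23.5 CPM on soft (0.42 ± 0.072, adjusted p = 4.49e-05). They did not overlap, as for 20.4% of genes.

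LIM-domain proteins, several of which move between the adhesion and the nucleus or sit on stress fibres, held 4 of the 11 members. Lpp, the lipoma-preferred partner and a relative of zyxin, was lower on soft in every condition. Its soft and stiff values overlapped in none, while 11.6% to 24.8% of all genes did not overlap in a single condition. Its libraries had 239, 256 and 272 CPM on stiff and 143, 164 and 171 CPM on soft at 24 h (-0.68 ± 0.064, adjusted p = 3.34e-11). After 48 h with LIF they had 109, 126 and 133 against 93.1, 93.7 and 96.3 CPM (-0.38 ± 0.067, adjusted p = 0.000987). This call was lost without stiff library 3 (adjusted p = 0.0667) and kept in 12 of the 45 pool assignments. In serum the Lpp libraries had 128, 135 and 136 against 83.4, 89.3 and 97.8 CPM (-0.56 ± 0.066, adjusted p = 2.59e-08). With PD03 they had 163, 165 and 166 CPM on stiff and from 88.3 to 106 CPM (median 94.7) on soft (-0.80 ± 0.055, adjusted p = 1.91e-15). The gap was widest with LIF and PD03, at 202, 202 and 205 against 84.2, 93.6 and 96.1 CPM (-1.15 ± 0.065, adjusted p = 3.74e-19).

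Zyxin (Zyx), a LIM protein of mature adhesions, had 99.8, 103 and 111 CPM on stiff and 68.1, 73.1 and 76.2 CPM on soft at 24 h (-0.53 ± 0.063, adjusted p = 2.86e-08). In serum it had 75.5, 77.8 and 92.0 against 49.6, 49.97 and 50.6 CPM (-0.70 ± 0.065, adjusted p = 4.66e-11). With PD03 the change of Zyx was -0.57 ± 0.054 without LIF and -0.69 ± 0.063 with LIF (adjusted p = 4.68e-11 and 3.76e-12). With LIF at 48 h the change was -0.23 and did not pass. The libraries there, 53.9 to 59.2 CPM on stiff and 42.6 to 51.2 CPM on soft, do not overlap, as for 14.9% of genes.

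Hic-5 (Tgfb1i1), the paralogue of paxillin, had 24.98, 30.3 and 30.7 CPM on stiff and 19.5, 20.8 and 22.9 CPM on soft at 24 h (-0.45 ± 0.10, adjusted p = 0.00383, and 0.0524 without soft library 2). With PD03 the groups were further apart, at 24.8, 27.3 and 28.1 CPM on stiff and 13.1 to 16.1 CPM (median 14.7) on soft (-0.86 ± 0.089, adjusted p = 3.62e-10). With LIF and PD03 they had 27.8, 28.8 and 28.8 against 13.7, 13.7 and 15.6 CPM (-0.99 ± 0.10, adjusted p = 2.66e-10). Paxillin (Pxn) passed in none of the conditions, with log2 fold changes from -0.02 to 0.05 around 63.2 to 79.5 CPM.

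Enigma (Pdlim7) had 146, 150.05 and 151 CPM on stiff and 102, 111 and 114 CPM on soft at 24 h (-0.45 ± 0.063, adjusted p = 1.03e-06). It fell by 0.38 with PD03 and by 0.52 with LIF and PD03 on the log2 scale (adjusted p = 3.18e-06 and 2.87e-08). Its serum call (-0.21 ± 0.064, adjusted p = 0.0396) was lost without any 1 of the 6 libraries (0.226 at most) and passed under no pool assignment. Pdlim5 passed in both media with PD03, at -0.22 ± 0.047 and -0.31 ± 0.054 (adjusted p = 0.00104 and 3.43e-05).

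Of the 8 signalling members, 1 passed in any condition, while 86.8% of all genes tested passed in none. Bcar1 was lower on soft at 24 h, with group means of 224 ± 16 CPM (SD, n = 3) against 278 ± 16 CPM on stiff (-0.31 ± 0.057, adjusted p = 0.000172). It also fell in serum (-0.25 ± 0.057, adjusted p = 0.00248), a call lost without stiff or soft library 2 (0.0834 at most) and kept in 3 of 45 pool assignments (0.407 at most). FAK (Ptk2), SRC, its inhibitory kinase CSK, Crk, Git2 and Arhgef7 passed in none, and their log2 fold changes lay between -0.17 and 0.13. Nedd9 was lower in all 5 conditions by estimate (-0.62 to -0.24), without passing in any 1 of them, and passed over their mean (-0.42 ± 0.085, adjusted p = 0.000169). Of the 45 pool assignments, 3 kept this call of Nedd9 (adjusted p = 0.721 at most).

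**Figure D3:**
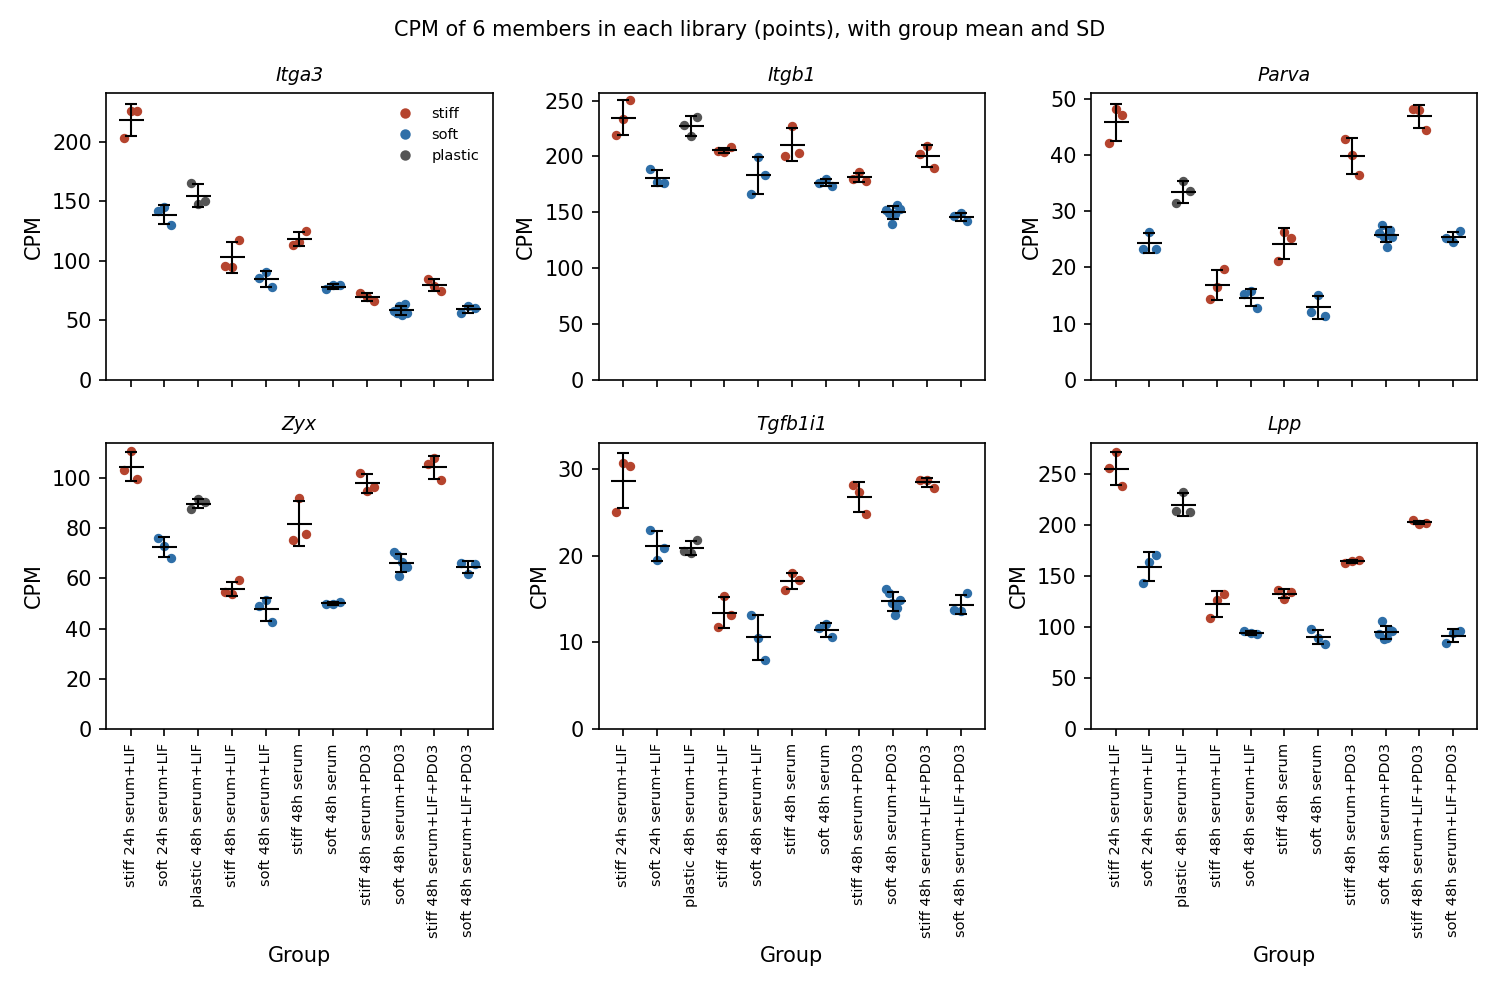
CPM of Itga3, Itgb1, Parva, Zyx, Tgfb1i1 and Lpp in each of the 36 libraries (points), with the mean and SD of each group (black), in red for stiff, blue for soft and grey for plastic. Lpp on soft at 48 h stays between 83.4 and 106 CPM in all 4 media while it reaches 205 CPM on stiff with LIF and PD03.

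The comparison with plastic asks how both gels stand to the usual culture surface, at 48 h in serum + LIF. Plastic libraries come from the pool of the 24 h libraries, and nearly all gel libraries do not. On soft gel 18 of 37 members passed (11.8% of genes), 16 lower (6.47%) and 2 higher (5.29%), and 3 to 10 with the pool term. On stiff gel 14 passed (5.54% of genes), 12 lower (3.59%) and 2 higher (1.95%), and 9 to 11 with the pool term. Members were thus mostly lower on both gels than on plastic.

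Lpp, with 213, 214 and 233 CPM on plastic, was lower by the most on soft (-1.22 ± 0.066, adjusted p = 4.06e-20), followed by Parva (-1.19 ± 0.10) and Nedd9 (-1.03 ± 0.19). On stiff, Parva (-0.98 ± 0.098), Lpp (-0.84 ± 0.065, adjusted p = 5.01e-14) and Nedd9 (-0.79 ± 0.19) fell most. The plastic libraries of Parva had 31.4, 33.6 and 35.3 CPM, above all 6 gel libraries of the same medium and time. The call of Nedd9 on stiff was lost without plastic library 1 (adjusted p = 0.054) and passed under no pool assignment, and on soft it was kept in 2 of the 45. Tns1 and Pxn were the members higher on both gels, by 0.29 and 0.22 on soft and 0.36 and 0.23 on stiff. Tns1 on stiff was kept in 30 of the 45 assignments, Pxn on stiff in 1 and both values on soft in 0. Leaving out soft serum + LIF library 1 ended the soft calls of Tns1 and Pxn (adjusted p = 0.0568 and 0.268), plastic library 1 that of Tns1 on soft (0.0876), and any plastic library, stiff library 2 or stiff library 3 that of Pxn on stiff (0.157 at most).

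PD03 was compared with its absence in 4 settings, on each gel with and without LIF, to ask what blocking MEK does to the members. It moved most members, as it moved most genes. On soft with LIF 29 members passed (54.4% of genes), 18 higher (27.8%) and 11 lower (26.6%). On stiff with LIF 30 passed (56.2%), 22 higher (28.3%) and 8 lower (27.8%). Without LIF, 29 passed on soft (57.5%), 18 higher (29%) and 11 lower (28.5%), and 30 on stiff (55.8%), 21 higher (28.4%) and 9 lower (27.4%). Soft libraries with and without PD03 share a pool apart from 2, stiff ones apart from 1, and the pool term gave 28 to 31 calls in these settings.

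**Figure D4:**
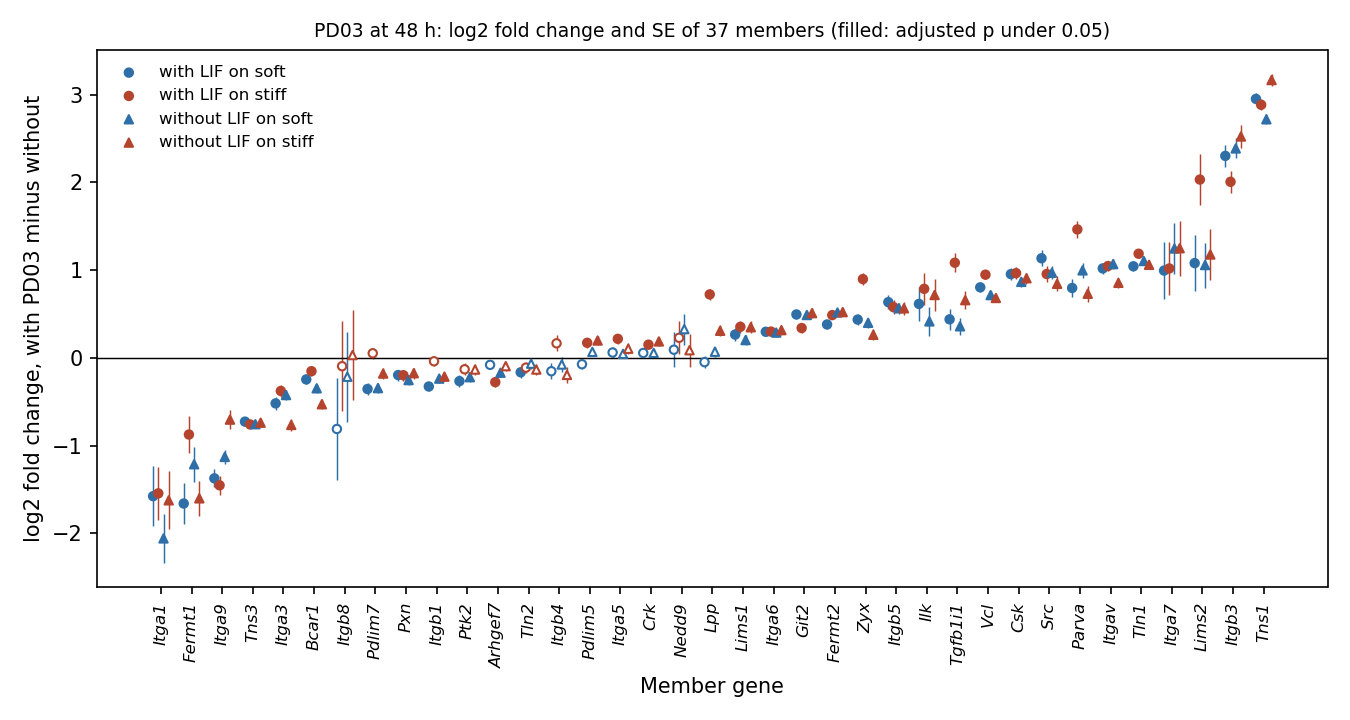
Log2 fold change with PD03 minus without (symbols) and SE (bars) of the 37 tested members at 48 h, for soft (blue) and stiff (red) gels with LIF (circles) and without (triangles), filled where the adjusted p is under 0.05. Tns1 and Itgb3 lie above 2 in all 4 settings, and Itga1, Fermt1, Itga9 and Tns3 lie below -0.5.

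Tensin 1 rose the most, and all its libraries with PD03 lay far above those without. On stiff it had 16.4 to 17.8 CPM in serum and 143, 154 and 158 CPM in serum + PD03 (3.17 ± 0.064, adjusted p = 3.31e-39). On soft Tns1 rose by 2.72 ± 0.057 without LIF and 2.95 ± 0.063 with LIF, and on stiff with LIF by 2.88 ± 0.063. Tensin 3 (Tns3), the more abundant relative, fell instead, by 0.73 to 0.76 on the log2 scale in all 4 settings, for example from 460 ± 13 to 272 ± 13 CPM (SD, n = 3) on stiff with LIF.

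Among the receptors, αv and its partners β3 and β5 rose, while Itgb8, another partner, passed in no setting. Itgb3 had 3.03, 3.26 and 3.66 CPM in serum on stiff and 18.7, 18.8 and 19.02 CPM with PD03 (2.52 ± 0.13, adjusted p = 6.9e-23). Its other changes were 2.39 ± 0.11, 2.30 ± 0.12 and 2.01 ± 0.12. Itgav rose by 0.86 to 1.07 and Itgb5 by 0.57 to 0.64, so that all 3 chains of the αvβ3 and αvβ5 receptors were higher in each setting. Itga6 rose by 0.29 to 0.32, and Itga7 by 0.99 to 1.25 at 0.954 to 2.83 CPM per group mean. On soft with LIF the call of Itga7 was lost without serum + LIF library 1 (adjusted p = 0.091).

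The collagen receptor chain Itga1 fell to levels near 1 CPM. It had 2.86, 3.41 and 3.93 CPM in serum on soft and from 0.518 to 1.26 CPM (median 0.778) with PD03 (-2.06 ± 0.28, adjusted p = 1.05e-08), and it fell by 1.54 to 1.62 in the other settings. Itga9 had 22.6, 23.7 and 27.9 CPM on soft with LIF and 8.45, 9.64 and 10.6 CPM with PD03 added (-1.37 ± 0.10, adjusted p = 1.22e-16). Its falls were 1.45, 1.13 and 0.70 on the log2 scale in the other settings. Itga3 fell in all 4 settings, by 0.38 to 0.76, and Itgb1 in 3, by 0.21 to 0.33, but not on stiff with LIF (-0.04). Neither Itga5 on soft (0.05 and 0.06) nor Itgb4 in any setting (-0.19 to 0.17) passed, while Itga5 on stiff with LIF was higher by 0.22.

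**Figure D5:**
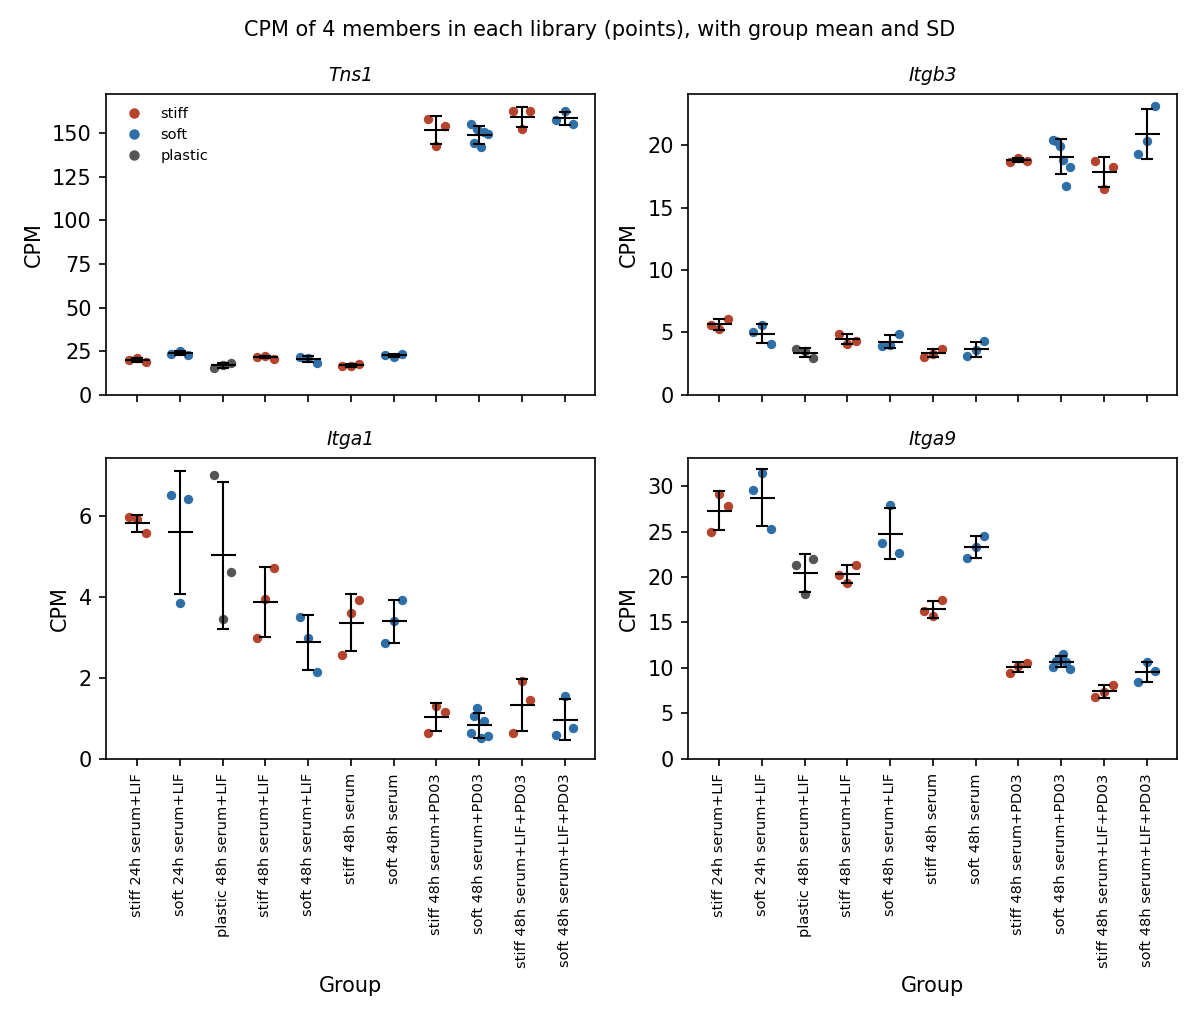
CPM of Tns1, Itgb3, Itga1 and Itga9 in each of the 36 libraries (points), with the mean and SD of each group (black), in red for stiff, blue for soft and grey for plastic. The 4 groups with PD03, at the right, hold Tns1 at 142 to 163 CPM and Itgb3 at 16.5 to 23.2 CPM, above all other libraries.

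The plaque split in the same way into members that rose and members that fell. Tln1 rose by 1.04 to 1.19 and Vcl by 0.68 to 0.95, for example Tln1 from 194, 196 and 199 CPM to a range of 398 to 444 CPM (median 423) on soft without LIF (adjusted p = 1.33e-26). Src rose by 0.84 to 1.14 and Csk, which phosphorylates and restrains SRC, by 0.87 to 0.97. Parva rose by 0.73 to 1.46, Zyx by 0.26 to 0.90, Tgfb1i1 by 0.36 to 1.08 and Fermt2 by 0.38 to 0.52. On soft with LIF the call of Tgfb1i1 was lost without serum + LIF library 3 (adjusted p = 0.0613). Lims2 had its largest change on stiff with LIF (2.03 ± 0.29, adjusted p = 5.17e-08), from 0.615 to 2.57 CPM.

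Fermt1 fell in all 4 settings, by 0.87 to 1.66, the last on soft with LIF (± 0.23, adjusted p = 2.97e-08), so both kindlins moved in opposite directions. Bcar1 fell by 0.15 to 0.53 and Pxn by 0.17 to 0.25. The smallest fall of Bcar1, on stiff with LIF, was lost without serum + LIF library 1 or 3 or serum + LIF + PD03 library 2 or 3 (adjusted p = 0.185 at most). For Pxn, leaving out serum + LIF library 1 on soft (0.224), serum + LIF library 2 or serum + LIF + PD03 library 1 on stiff (0.0766 at most), or serum library 2 or serum + PD03 library 2 or 3 on stiff (0.0918 at most) ended the call of that setting. Markers of other lineages moved with PD03 as well. The summed level of 7 primitive endoderm markers was 46.3 to 70.2 CPM in libraries without PD03 and 83.1 to 141 CPM with it, mostly Dab2 (mean 49.9 CPM). Gata6, Sox7, Gata4, Pdgfra, Foxa2 and Sox17 had means of 7.65, 7.61, 4.81, 4.77, 1.43 and 0.814 CPM. Gene by gene, 1 or 2 of the 7 were higher with PD03 and 2 to 4 lower in each setting. For 4 trophectoderm markers the sums were 12.6 to 43.8 and 96.7 to 155 CPM, mostly Gata3 (mean 45.5 CPM). Tfap2a, Cdx2 and Elf5 had means of 11.4, 4.46 and 0.268 CPM. Of the 4 trophectoderm markers, 3 or 4 were higher in each setting and none lower. For 3 neural markers they were 33.2 to 57.4 and 12.3 to 17.5 CPM, and for 4 primitive streak markers 11.2 to 20.04 and 5.93 to 8.74 CPM. Gene by gene, 0 or 1 of the 3 neural markers was higher with PD03 and 1 or 2 lower in each setting. Of the 4 primitive streak markers, 1 was higher and 2 were lower in each setting. Over all genes, 26.6% to 29% passed in either direction. The part of these shifts in the members' values was not tested.

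LIF alone moved few members. On stiff without PD03, 6 passed (1.41% of genes), 5 lower (0.695%) and 1 higher (0.712%), with 4 to 7 under the pool term and 4 without stiff serum + LIF library 1 or 2. Zyx fell most (-0.54 ± 0.066, adjusted p = 2.11e-07), from 75.5, 77.8 and 92.0 CPM in serum to 53.9, 54.4 and 59.2 CPM. Parva fell by 0.50 (adjusted p = 0.00224, and 0.0585 without stiff serum + LIF library 1) and Tns1 rose by 0.35 ± 0.074 (adjusted p = 0.00354). The call of Tns1 was lost without stiff serum + LIF library 2 or stiff serum library 1 (0.0741 at most). Bcar1 (-0.34), Vcl (-0.25) and Itgav (-0.24) were the other 3, and Itgav was lost without stiff serum + LIF library 1 or 2 or stiff serum library 2 (0.271 at most).

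On soft without PD03, edgeR and DESeq2 both called 0 members (edgeR 0.0169% of genes), and 5 had an unadjusted p under 0.05. On soft with PD03, 0 members passed by either tool (0.107% of genes) and 0 had an unadjusted p under 0.05. The pool term gave 0 calls in both under every assignment. For neither was the share of all genes at an unadjusted p computed. On stiff with PD03, Lpp alone passed (0.514% of genes), rising by 0.30 ± 0.063 (adjusted p = 0.00881). This was lost without stiff serum + LIF + PD03 library 1 or stiff serum + PD03 library 2 (0.0689 at most), and DESeq2 called 2 members. Every pool assignment gave 1 call.

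Whether the stiffness difference itself depends on the medium or time was tested with interaction terms. With LIF present, PD03 widened the deficit on soft for 6 of 37 members (1.07% of genes, 0.949% in that direction), and 3 to 5 with the pool term. The largest was Lpp (-0.77 ± 0.093, adjusted p = 1.61e-07), whose soft group means with LIF were 94.4 and 91.3 CPM without and with PD03 while stiff rose from 123 to 203 CPM. Parva (-0.67 ± 0.14, adjusted p = 0.00389), Tgfb1i1 (-0.64 ± 0.16, adjusted p = 0.0235), Zyx (-0.46 ± 0.093, adjusted p = 0.0024), Pdlim7 (-0.41 ± 0.092, adjusted p = 0.00979) and Itgb1 (-0.29 ± 0.077, adjusted p = 0.0489) were the others. All 6 use the 48 h serum + LIF libraries, in which the fewest members passed between soft and stiff. Of these calls Itgb1 passed under no pool assignment, Tgfb1i1 in 15 of 45 and Pdlim7 in 41 of 45.

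Leaving out 1 library changed some of these calls. Pdlim7 was lost without soft serum + LIF library 1 (0.0612). Itgb1 was lost without 8 of the 12 libraries (0.288 at most), namely any stiff serum + LIF library, stiff serum + LIF + PD03 library 1 or 2, soft serum + LIF + PD03 library 1 or 3, or soft serum + LIF library 2. Tgfb1i1 was lost without 5 (0.209 at most), namely stiff serum + LIF library 1, soft serum + LIF + PD03 library 1 or 2, or soft serum + LIF library 1 or 2.

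Without LIF, 1 member had an interaction with PD03 (0.797% of genes). The soft minus stiff log2 fold change of Tns1 was 0.42 in serum and -0.02 with PD03 (difference -0.45 ± 0.085, adjusted p = 0.0024), and this held without any 1 library. The pool term gave 1 to 2 calls. The interaction of stiffness with LIF in the absence of PD03 passed for Parva (0.68 ± 0.15), Tns1 (-0.50 ± 0.10) and Zyx (0.47 ± 0.094), against 0.0847% of genes, with adjusted p from 0.0365 to 0.0419. The pool term gave 0 to 4 calls. DESeq2 left these 3 members without an adjusted p and called 3 others, Itga3, Vcl and Bcar1, all with a positive value. Each of the 3 edgeR calls was kept in 15 of 45 pool assignments and was lost without any 1 of 8 to 10 of the 12 libraries. All 3 were lost without stiff serum + LIF library 1 or 2, stiff serum library 2, soft serum + LIF library 1 or 2, or soft serum library 1 or 3, which left 0 calls, and 1 call remained without soft serum library 2.

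Between 24 and 48 h in serum + LIF, the deficit on soft became smaller for Parva (0.70 ± 0.14, adjusted p = 0.0102) and Vcl (0.33 ± 0.072, adjusted p = 0.0211), against 0.254% of genes. On stiff, Parva went from 42.1 to 48.2 CPM at 24 h to 14.3 to 19.7 CPM at 48 h, and on soft from 23.3 to 26.3 to 12.8 to 15.7 CPM. Time and pool cannot be fully told apart here, and the 2 calls were kept in 11 and 3 of 45 pool assignments, which gave 0 to 2 calls. Parva was lost without soft 24 h library 3, stiff 48 h library 1 or soft 48 h library 2 (0.0942 at most). Vcl was lost without those 3, stiff 24 h library 2, stiff 48 h library 2 or soft 48 h library 1 (0.142 at most), so that leaving out soft 24 h library 3, stiff 48 h library 1 or soft 48 h library 2 left 0 calls, while leaving out soft 48 h library 3 gave 6. Without stiff 24 h library 2, stiff 48 h library 2 or soft 48 h library 1 there was 1 call.

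Genes of the same pathway that are not members were compared in the same 5 conditions. Over all genes 3.55%, 0.78%, 4.85%, 5.55% and 7.61% passed there, and 2.52%, 0.333%, 2.77%, 3.42% and 4.82% were lower on soft. Of the 37 tested members 13, 2, 15, 13 and 14 passed. Of 13 other integrin subunits, 8 could be tested, and on soft against stiff 0, 0, 0, 1 and 1 passed in the 5 conditions in the order given above. The 1 was Itga8, lower in serum + PD03 (-0.63) and serum + LIF + PD03 (-0.62). Of 32 other plaque and adaptor genes, 30 were tested. They gave 5 calls at 24 h (4 lower), 1 in 48 h serum + LIF (higher), 6 in serum (3 lower), 10 in serum + PD03 (7 lower) and 11 in serum + LIF + PD03 (8 lower). The largest mean changes among these were in Tns4 (-0.62 ± 0.071), vinexin (Sorbs3, -0.61 ± 0.082), Kank2 (0.26 ± 0.021) and filamin A (Flna, -0.25 ± 0.020). Kank2, which binds talin at the rim of adhesions, was higher on soft in all 5 conditions.

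The matrix ligands of these receptors followed the gel too. Of 12 genes, 11 were tested, and 7, 5, 7, 7 and 6 passed in the 5 conditions, of which 6, 3, 5, 6 and 6 were lower on soft. The shares of all genes that passed were 3.55%, 0.78%, 4.85%, 5.55% and 7.61%. Thrombospondin 1 (Thbs1, -1.18 ± 0.034 over the mean of the conditions, adjusted p = 1.5e-31) and collagen I (Col1a1, -1.16 ± 0.060) changed more than any member. Tenascin C (Tnc, -0.56 ± 0.13) and collagen IV (Col4a2, -0.36 ± 0.027) were the next. With PD03, 8 to 10 of the 11 passed in each setting, against 54.4% to 57.5% of genes. In either medium 1 was lower on soft and 0 on stiff, and the rest were higher.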

How the data were processed

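RNA from 36 libraries in 11 groups was sequenced. The authors aligned reads with STAR 2.5.2a to GRCm38 (mm10), counted them per Ensembl gene with HTSeq and deposited the raw counts as whole numbers without normalisation. The kit is labelled NuGen, and handling of reads that match several places is not given in the sources used here. Symbols, coordinates and exon lengths came from GENCODE M21. Columns carry their group but no replicate number, so library numbers are only names.

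The tests used edgeR 4.0.16 under R 4.3.3. The filter filterByExpr kept 17702 genes with 99.9% of counts. Libraries were scaled by TMM, and 1 quasi-likelihood model with a coefficient per group was fitted over all libraries. Each comparison was a contrast, with Benjamini-Hochberg adjustment over 17702 genes and a threshold of 0.05. Alternatives were RLE scaling, no filter, DESeq2 1.42.0, fits on 2 groups, leaving out each library, and a pool term. The script was tested on simulated counts. No replicate pair agreed within sampling noise (45 pairs, chi-square 2.22 to 13.4 per gene over genes reaching 50 counts).

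The members, gene lists and markers were chosen with earlier results of these data known. Full statistics were given for members that passed in at least 3 of the 5 soft against stiff conditions or in the direction opposite to most, and for the 3 largest changes among those that passed in each other comparison. Other members are given by ranges or as exceptions. Of the lists of non-members, up to 4 genes each with the largest mean change were named.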

Additional observations from a re-analysis of the deposited data

Results flagged for a closer look

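In the 6 soft serum + PD03 libraries, the only group large enough for a test of single libraries (Dixon's, 38 members checked, of which chance flags about 1 in 20), 2 members had a library far from the rest. Lims1 had 63.4 CPM in library 3, with the nearest at 70.3 CPM, a gap of 0.667 of the range. Tns3 had 302 CPM in library 6, with the nearest at 281 CPM, a gap of 0.629 of the range. Neither member passed between soft and stiff.

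Differences of the soft minus stiff log2 fold change between media or times, each by an interaction term in edgeR, passed in 12 cases. For PD03 with LIF they were -0.29 for Itgb1, -0.67 for Parva, -0.46 for Zyx, -0.64 for Tgfb1i1, -0.41 for Pdlim7 and -0.77 for Lpp. For PD03 without LIF the value was -0.45 for Tns1. For LIF without PD03 they were 0.68 for Parva, -0.50 for Tns1 and 0.47 for Zyx. For time in serum + LIF they were 0.33 for Vcl and 0.70 for Parva. The differences that involve 48 h groups compare substrates that are nearly split by pool, and the part of the pool was not tested beyond the fits with a pool term.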

How the results depend on the processing

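No paired analysis was possible because the columns of the count table carry no replicate number. No called value changed sign with RLE scaling, no filter, DESeq2, 2 groups alone or 1 library left out. Over the 45 pool assignments, 5 crossed 0 in at least 1: Itga3 in 48 h serum + LIF (up to 0.0073), Itga5 and Ilk over the mean (up to 0.0094 and 0.06), Itga1 on soft against plastic (up to 0.47) and Pxn there (down to -0.05). The cause of the differences given here was not tested.

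Counts of members past the threshold stayed within 1.5 times the main count under RLE scaling in all 20 comparisons, and under the other settings except as follows. The fit on 2 groups gave 1 in place of 2 in 48 h serum + LIF. Without a filter there were 2 in place of 1 for stiffness by PD03 without LIF, 5 in place of 3 for stiffness by LIF and 6 in place of 2 for stiffness by time. DESeq2 gave 2 in place of 1 for LIF with PD03 on stiff, 2 in place of 1 for stiffness by PD03 without LIF, and 4 in place of 2 for stiffness by time. The lowest counts with a pool term were 0 in 48 h serum + LIF, 5 in serum, 8 in serum + PD03, 7 in serum + LIF + PD03, 9 for the mean of the 5 conditions, 3 and 9 for soft and stiff against plastic, and 3, 0 and 0 for stiffness by PD03 with LIF, by LIF and by time. The highest were 10 for soft against plastic and 2 for stiffness by PD03 without LIF.

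Leaving out 1 library at a time gave 11 to 13 calls at 24 h, 0 to 2 in 48 h serum + LIF (0 without stiff library 3), 11 to 14 in serum, 10 to 13 in serum + PD03, 10 to 14 in serum + LIF + PD03 and 19 to 20 over the mean. It gave 15 to 18 and 12 to 14 for soft and stiff against plastic. For PD03 it gave 26 to 29 and 29 to 30 with LIF on soft and stiff, and 27 to 30 and 28 to 32 without LIF. For LIF on stiff it gave 4 to 7 without PD03 and 0 to 1 with PD03, and 0 on soft. The interactions gave 4 to 6 for PD03 with LIF, 1 for PD03 without LIF, 0 to 4 for LIF and 0 to 6 for time.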

Other observations

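Among the integrin subunits that are not members, Itga11, a collagen receptor chain singled out after its values were seen, had the largest change of the list with PD03. Without PD03 its group means were 0.245 to 0.418 CPM, and with PD03 they were 6.15 to 8.01 CPM. The log2 fold changes were 4.55 ± 0.32 and 4.46 ± 0.30 with LIF on soft and stiff, and 4.59 ± 0.30 and 4.40 ± 0.30 without LIF. The size of these folds is uncertain, because the levels without PD03 are near the floor. Itga11 may have passed the filter on low counts only through the groups with PD03, where it is high. This was not tested, and its folds are given as description only. Itgb7, a β chain of leukocytes, fell by 1.34 to 1.81 on the log2 scale in the same settings. Fibronectin (Fn1), the highest of the matrix ligands named here, had group means of 1024 to 1196 CPM without PD03 and 2173 to 2370.4 CPM with it, and did not pass between soft and stiff over the mean of the conditions (-0.04). Itga8, a chain that pairs with β1, was lower with PD03 on soft with and without LIF (-0.91 in both) and on stiff with LIF (-0.70). The leukocyte chain Itgal passed on soft with LIF only (-0.60), and the differences between settings were not tested.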
